A study of Homo sapiens with 6 samples.

Results

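The tricarboxylic acid (TCA) cycle enzymes, the pyruvate dehydrogenase complex with its regulators, the malic enzymes and the enzymes that feed carbon into the cycle were described here as 35 genes. They were taken by symbol, by their place in metabolism, from 26810 gene rows of the deposited table, and every symbol had a row. Earlier results of these data were known when the genes were chosen. A gene was tested when 3 or more of the 6 libraries listed it at 1 or higher, which held for 33 of the 35 and not for ME1 and PDK4. The study asked how METTL1, which places N7-methylguanosine on tRNA, affects gene expression in acute myeloid leukemia cells. The cells were U-937, a human leukemia line of monocyte-like character. The labels give a KMT2A-MLLT10 fusion, but this entry is uncertain, was not checked here, and nothing below rests on it. All libraries came from 1 Cas9-expressing clone that had received a lentiviral guide RNA and been selected with blasticidin at 10 µg/ml and hygromycin B at 200 µg/ml. The 3 control libraries carried the guide sgNS and the 3 treated libraries the guide sgMETTL1.3, and cells were collected about 8 to 10 days after transduction. With 1 guide in 1 clone, an effect of this guide beyond METTL1 and an effect of METTL1 loss cannot be told apart. Whether replicates were grown separately is not in the labels, and the p-values then reflect only library-to-library spread, possibly technical.

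Pyruvate enters mitochondria and is turned into acetyl-CoA by the pyruvate dehydrogenase complex, which kinases (PDKs) switch off and phosphatases switch on. The TCA cycle then oxidises acetyl-CoA, handing electrons to the respiratory chain, and its intermediates are also drawn off for the synthesis of lipids, amino acids and heme. Malic enzymes convert malate to pyruvate and make NADH or NADPH, while pyruvate carboxylase and glutamate dehydrogenase refill the cycle. Proliferating leukemia cells use the cycle both for energy and as a source of building blocks.

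Values are TPM, a level per transcript length, multiplied by 1 factor per library. It makes the ERCC spike-ins, synthetic RNAs added to each library, sum to the same amount, and the result is called the spike-in scale. The labels give 300 ng of total RNA for each library. Values on this scale may therefore stand for a level per amount of total RNA, and a change per cell was not measured. Tests are limma fits on log2(value + 1) across all 12449 tested genes with Benjamini-Hochberg adjustment, "rose" and "fell" mean an adjusted p under 0.05, and fold changes on this scale understate the change of low genes. The factor averaged lower in sgMETTL1.3 (1.025, 0.832 and 0.949) than in sgNS (1.129, 1.227 and 1.207), so fold changes are also given as TPM for the genes the results turn on, rescaled over the gene rows without the spike-ins. METTL1 itself fell from 19.7, 22 and 20.3 to 8.28, 5.94 and 7.42 (log2 fold change -1.41, SE 0.131, limma adjusted p = 2.41e-06; -1.08 as TPM). WDR4, its partner subunit, fell too, by 1.16 on the log2 scale (0.82 as TPM). The library sgMETTL1.3 replicate 1 stood apart. Its deviation from the other libraries of its group followed GC content across 11752 genes (Spearman 0.837, a description, since genes are not replicates). Of 8 myeloid markers, 7 were listed at 1 or more in some library and summed to 1088 to 1160 in sgNS and 600 to 844 in sgMETTL1.3, while MPO stayed under 1. Of 6 T and NK cell markers only NKG7 reached 1, with sums of 304 to 338 and 156 to 239, and CD3D, CD3E, CD3G, CD8A and GNLY were under 1 throughout. The B cell list had 3 of 5 at 1 or more (sums 7.85 to 10.1 and 6.31 to 11, MS4A1 and CD79B under 1) and the fibroblast list 1 of 5 (1.22 to 1.58 and 1.8 to 3.16, COL1A2, COL3A1, DCN and PDGFRB under 1). All 5 erythroid (0.294 to 0.442 and 0.183 to 0.323) and all 5 epithelial markers (0 to 0.0966 and 0.025 to 0.199) stayed under 1. The part of these shifts in the results was not tested. In these bulk libraries, fewer cells of a kind and less RNA per cell cannot be told apart.

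ME2 and ME3, the malic enzymes of mitochondria, moved in opposite directions, and their promoters are printed here because these genes bracket the whole set. Both sequences are the 250 bases before the RefSeq transcription start (GRCh38.p14), 5′ to 3′ on the strand of the gene, at chr18:50878868-50879117 on the plus strand for ME2 and chr11:86672617-86672866 on the minus strand for ME3. Capitals mark a match to any of the letters searched, which were CACGTG (E-box), CCGGAAGT (ETS type), GCATGCGC (part of an NRF1 site) and TGATGCAA (core of an ATF4 site), each on both strands.
ME2: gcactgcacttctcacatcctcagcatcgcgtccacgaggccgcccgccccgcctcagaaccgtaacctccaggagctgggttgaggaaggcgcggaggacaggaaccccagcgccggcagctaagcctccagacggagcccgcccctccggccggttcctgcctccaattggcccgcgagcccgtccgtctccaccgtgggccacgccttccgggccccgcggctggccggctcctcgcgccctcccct
ME3: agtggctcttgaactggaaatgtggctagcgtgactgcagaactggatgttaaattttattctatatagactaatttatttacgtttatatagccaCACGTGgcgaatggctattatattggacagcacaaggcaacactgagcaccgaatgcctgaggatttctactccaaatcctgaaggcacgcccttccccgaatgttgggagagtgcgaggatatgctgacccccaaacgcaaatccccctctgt

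The ME2 window had 72.4% G and C and none of the 4 motifs, and the ME3 window had 46.0% and 1 E-box. The GENCODE annotation starts ME2 at 50878734, so the whole ME2 window lies inside the gene as annotated there. The bases before that GENCODE start were not part of the window. The absence of motifs therefore holds for the RefSeq window of ME2 only. Of the 35 genes, 32 had a promoter in the RefSeq table. An E-box was found in 2 of the 32 (6.25%), those of PDHB and ME3, against 6.49% of 27305 promoters of the same length. The ETS letters were found in 4 (DLST, IDH3B, MDH2 and SDHD; 12.5% against 3.64%), the NRF1 letters in 2 (SDHB and SDHD; 6.25% against 2.81%) and the ATF4 core in 1 (GOT1; 3.12% against 0.82%). These are matches of letters in a window and not shown to be bound. The 27305 promoters were not limited to tested genes or matched for GC content, and the hits are few. Whether these letters are more frequent in the set was not tested. The genes with ETS letters had log2 fold changes from -0.86 for DLST to -0.35 for IDH3B, within the range of the other genes.

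Most of the set was lower in sgMETTL1.3. On the spike-in scale 27 of the 33 tested genes fell, ME3 rose, and PDK2, PDP1, IDH1, IDH3G and PC did not pass. Those counts are 81.8% and 3.03% of the set, where 49.3% of all tested genes fell and 6.4% rose. Because the set was chosen with earlier results of these data known, these counts describe it and do not test it. The median log2 fold change of the set was -0.57, against -0.32 for all tested genes, and 25 of the 33 lay below the latter. As TPM, where the median of all genes was 0.01, 15 of the 33 fell and 3 rose (ME3, PDK2 and IDH1), against 25.3% and 24.8% of all tested genes. The median of the set as TPM was -0.21, and all 15 genes that fell as TPM had also fallen on the spike-in scale. Values of the groups did not overlap, with sgMETTL1.3 lower, for 27 of the 33 genes, against 53.4% of all tested genes. Without sgMETTL1.3 replicate 1, 29 of 33 fell and ME3 rose, where 61.4% and 6.43% of all tested genes did. That fit had fewer libraries and pooled the spread across genes more fully. Why more genes fell in it was not tested.

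**Figure D1:**
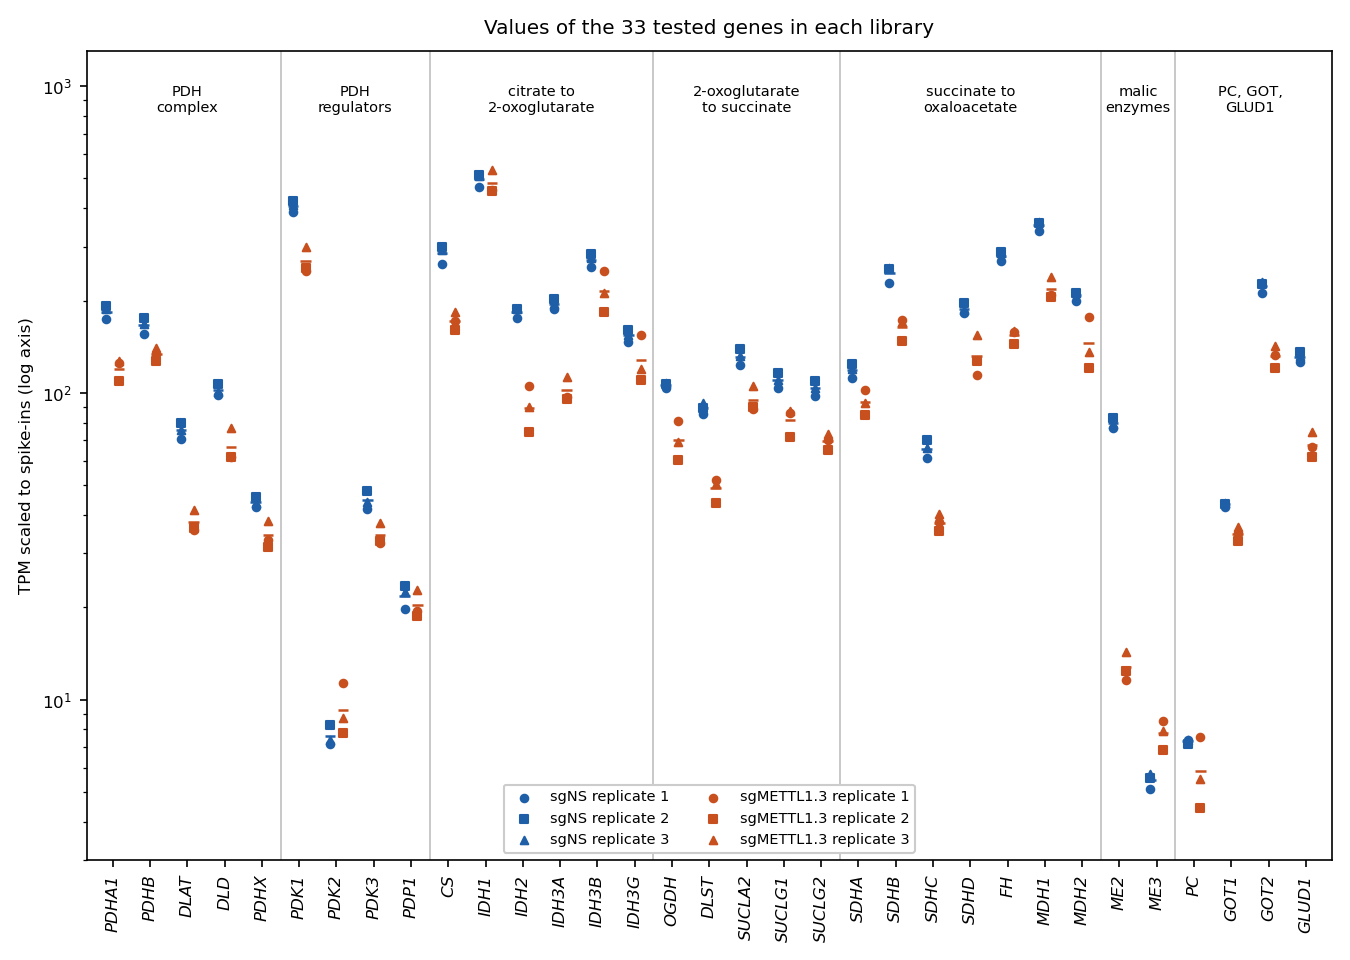
Values of the 33 tested genes (TPM scaled to spike-ins, log axis) in each of 6 libraries, ordered by role; points are libraries and short lines are group means. ME2 is the gene with the widest gap between groups, IDH1 is at a similar height in both, and only ME3 has all sgMETTL1.3 libraries above all controls.

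**Figure D2:**
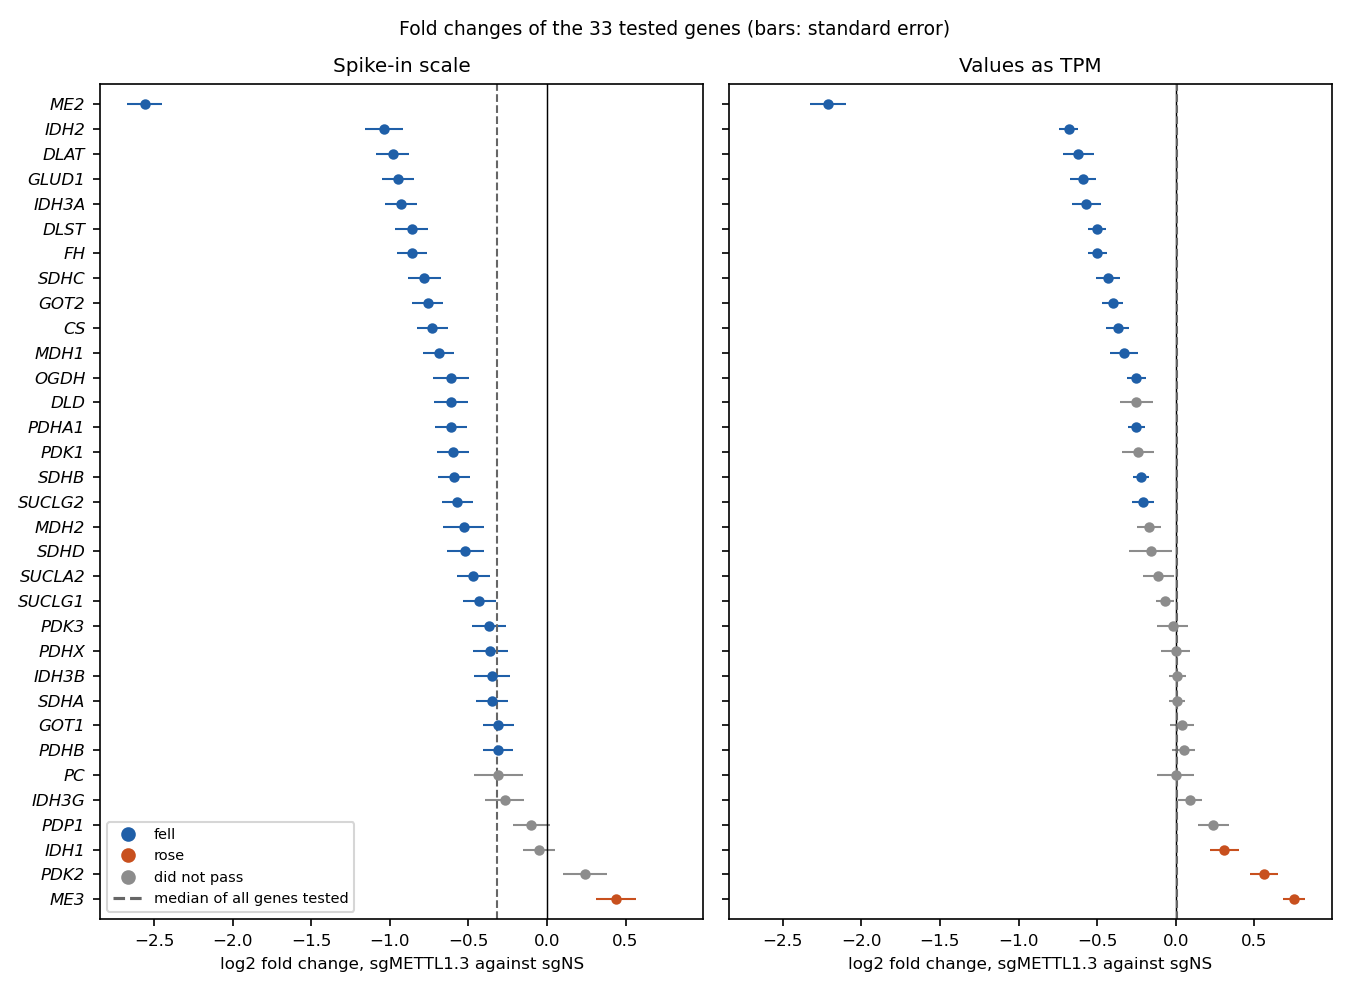
Log2 fold changes of the same 33 genes on the spike-in scale and as TPM, with standard errors from limma; colours give the call, and the dashed line is the median of all genes tested (-0.32 on the spike-in scale and 0.01 as TPM). ME2 lies apart at the low end of both panels, and ME3 at the high end.

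The malic enzyme genes gave the lowest and the highest fold change of the set. ME2, the mitochondrial NAD-dependent malic enzyme, lies on chromosome 18 at 50878734 to 50954257 (GENCODE 29, GRCh38). Its values were 76.9, 83.0 and 79.3 in the control libraries and 11.6, 12.4 and 14.3 in the sgMETTL1.3 libraries. All sgMETTL1.3 libraries lay far below all controls, at 16% of the control mean. ME2 fell from 79.7 ± 3.08 to 12.8 ± 1.41 (SD, n = 3), or -2.56 on the log2 scale (SE 0.11, limma adjusted p = 1.51e-08). As TPM it was -2.21 (adjusted p = 5.21e-05), and without sgMETTL1.3 replicate 1 it was -2.49. Only 2 of the 12449 tested genes had a lower fold change, or 3 as TPM. Its fall was known when this set was put together, so it is given as a size. The next lowest of the set, IDH2, was at -1.04.

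ME3, the mitochondrial NADP-dependent form, was a low gene. It had values of 5.10, 5.55 and 5.73 in the controls and 8.53, 6.84 and 7.92 in the sgMETTL1.3 libraries. The groups did not overlap, and the highest value was that of sgMETTL1.3 replicate 1. ME3 rose by 0.44 on the log2 scale (SE 0.127, limma adjusted p = 0.0101), by 0.75 as TPM and by 0.37 without sgMETTL1.3 replicate 1. ME1, the cytosolic NADP-dependent form, was listed at 0 in 5 libraries and at 0.0245 in sgNS replicate 2, so no fold is given. ME2 therefore made up 93.6 ± 0.28% of the summed malic enzyme values in the controls and 62.2 ± 3.99% with sgMETTL1.3 (exact two-sided permutation p = 0.1; SD, n = 3; p = 0.1 is the smallest that 3 against 3 can give). The libraries gave 93.8%, 93.7% and 93.3%, and 57.6%, 64.5% and 64.4%. This share compares genes per transcript length and does not depend on the scale of a library. It is not free of the GC deviation of sgMETTL1.3 replicate 1. There ME2 (40.6% GC) lay 0.19 below the other libraries of its group on the log2 scale, and ME3 (56.8%) 0.19 above. The value of ME2 was 14.6 ± 0.68 times that of ME3 in controls and 1.66 ± 0.264 times in sgMETTL1.3.

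The 3 nearest protein-coding genes with a row on each side of ME2 had smaller fold changes or were not tested. After ME2, ELAC1, a tRNA-processing endonuclease, fell by 0.83 on the log2 scale (limma adjusted p = 0.000148; 0.52 as TPM). SMAD4, a mediator of TGF-beta signalling, had -0.25 and MEX3C, an RNA-binding ubiquitin ligase, -0.11, and neither passed (adjusted p = 0.0704 and 0.393); as TPM their signs turned, to 0.10 and 0.24, again without passing. On the other side, MRO and MAPK4 were listed under 1 in every library, and SKA1, a spindle gene, fell (-1.07, or -0.72 as TPM).

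The 5 genes of the pyruvate dehydrogenase complex all fell on the spike-in scale, and DLAT and PDHA1 also as TPM. Of all tested genes 49.3% fell on the spike-in scale and 25.3% as TPM. Without sgNS replicate 2, and again without sgNS replicate 3, only 3 of the 5 passed: PDHB (limma adjusted p = 0.103 and 0.0861) and PDHX (0.0692 and 0.0513) did not. In these fits 39.7% and 42.2% of all tested genes fell. Whether the 5 genes differ from such shares was not tested. DLAT, the acetyltransferase core (E2), had the largest change. Its values of 71.0, 79.8 and 75.9 in controls compared with 35.7, 36.4 and 41.4 in sgMETTL1.3, and the groups were well separated. The log2 fold change was -0.98 (SE 0.105, limma adjusted p = 6.64e-06), or -0.62 as TPM. PDHA1, the alpha subunit of the dehydrogenase (E1), fell from 184 ± 9.5 to 120 ± 9.89 (SD, n = 3; log2 fold change -0.61, or -0.25 as TPM). DLD, the dihydrolipoamide dehydrogenase (E3) shared with the 2-oxoglutarate complex, fell by 0.61 on the log2 scale. PDHB, the beta subunit of E1, fell by 0.31 and PDHX, which anchors E3, by 0.36. As TPM, DLD was at -0.25, PDHB at 0.05 and PDHX near 0 without passing. Differences among the subunits were not tested.

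Of the regulators of the complex, the kinases PDK1 and PDK3 fell and PDK2 and the phosphatase PDP1 did not pass. Without sgNS replicate 2 only PDK1 of these 4 passed, with PDK3 at a limma adjusted p of 0.0745. In that fit 39.7% of all tested genes fell, against 49.3% with all libraries. PDK1, the kinase induced in hypoxia, was the second most abundant transcript of the set. Its values were 389, 421 and 409 in controls and 250, 256 and 300 in sgMETTL1.3. The groups did not overlap, and the log2 fold change was -0.60 (SE 0.101, limma adjusted p = 0.000243), or -0.24 as TPM without passing (adjusted p = 0.086). PDK3 fell by 0.37, and was at -0.02 as TPM. PDK2 was low, with values of 7.19, 8.25 and 7.41 in controls and 11.3, 7.79 and 8.72 in sgMETTL1.3. Its groups overlapped, the highest value came from sgMETTL1.3 replicate 1, and it rose as TPM (0.56, adjusted p = 0.00219). PDP1 had -0.10 (adjusted p = 0.491). PDK4, the kinase induced by fasting, was listed at 0 in 5 libraries and at 0.0226 in sgNS replicate 1.

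From citrate to 2-oxoglutarate, CS, IDH2, IDH3A and IDH3B fell, while IDH1 and IDH3G did not pass. IDH2, the mitochondrial NADP-dependent isocitrate dehydrogenase, had values of 176, 188 and 188 in controls and 105, 74.4 and 89.9 in sgMETTL1.3. It fell by 1.04 on the log2 scale (SE 0.121, limma adjusted p = 1.21e-05), by 0.68 as TPM and by 1.16 without sgMETTL1.3 replicate 1. IDH1, its cytosolic counterpart, was the most abundant transcript of the set. Its values were 469, 515 and 511 in controls and 457, 456 and 534 in sgMETTL1.3, so the groups overlapped. The log2 fold change of IDH1 was -0.05 (adjusted p = 0.695), and it rose by 0.31 as TPM (adjusted p = 0.0256). The value of IDH2 relative to IDH1 in the same library was 0.376, 0.365 and 0.368 in controls and 0.229, 0.163 and 0.168 in sgMETTL1.3. This ratio differed between groups by -0.99 on the log2 scale and did not overlap (exact two-sided permutation p = 0.1, adjusted over 8 ratios 0.16).

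The 3 subunit genes of the NAD-dependent isocitrate dehydrogenase had fold changes of unequal size. IDH3A, its catalytic subunit, went from 188, 203 and 195 to 97.2, 95.2 and 113 (log2 fold change -0.93, limma adjusted p = 7.98e-06; -0.57 as TPM). IDH3B fell by 0.35 and was at 0.01 as TPM, and it did not pass without sgNS replicate 2 or without sgMETTL1.3 replicate 2 or 3 (limma adjusted p = 0.0787, 0.053 and 0.0797). IDH3G had -0.27 (adjusted p = 0.08), with the highest sgMETTL1.3 value, 155, in replicate 1 and 110 and 120 in the others. Without that library IDH3G fell by 0.42 (adjusted p = 0.000263). CS, citrate synthase, which joins acetyl-CoA to oxaloacetate, fell from 286 ± 18.9 to 171 ± 11.4 (SD, n = 3), which was -0.73 on the log2 scale, or -0.37 as TPM.

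All 5 genes from 2-oxoglutarate to succinate fell on the spike-in scale, and DLST, OGDH and SUCLG2 also as TPM. The shares of all tested genes that fell were 49.3% and 25.3%. DLST, the succinyltransferase core of the 2-oxoglutarate dehydrogenase complex and the counterpart of DLAT, had values of 85.4, 89.1 and 92.5 in controls and 52.1, 43.7 and 50.6 in sgMETTL1.3. Its log2 fold change was -0.86 (SE 0.104, limma adjusted p = 1.81e-05), or -0.50 as TPM. OGDH, the first subunit of that complex, fell by 0.61 (0.25 as TPM). Succinyl-CoA synthetase pairs the shared subunit SUCLG1 with SUCLA2 for the ATP-forming or SUCLG2 for the GTP-forming enzyme. SUCLG1 fell by 0.43, SUCLA2 by 0.47 and SUCLG2 by 0.57. The ratio of SUCLA2 to SUCLG2 was 1.27 ± 0.0094 in controls and 1.36 ± 0.0898 for the sgMETTL1.3 libraries (exact permutation p = 0.3; SD, n = 3), and its groups overlapped.

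The 7 genes from succinate to oxaloacetate all fell on the spike-in scale, and FH, SDHC, MDH1 and SDHB also as TPM. For all tested genes the shares that fell were 49.3% and 25.3%. FH, fumarase, had values of 269, 287 and 285 in controls and 158, 144 and 159 in sgMETTL1.3, clearly apart. Its log2 fold change was -0.86 (SE 0.0945, limma adjusted p = 7.88e-06), or -0.50 as TPM. Among the subunits of succinate dehydrogenase, which is also respiratory complex II, SDHC had the largest change. This membrane anchor subunit went from 65.8 ± 4.52 to 37.8 ± 2.43 (SD, n = 3; log2 fold change -0.78, or -0.43 as TPM). SDHB, the iron-sulfur subunit, fell by 0.59, SDHD, the other anchor, by 0.52, and SDHA, the flavoprotein, by 0.35. SDHA did not pass without sgNS replicate 2 or 3 (limma adjusted p = 0.0667 and 0.0539). As TPM, SDHA was at 0.01 and SDHD at -0.16, and neither passed. Reads of SDHA could be shared with its pseudogene SDHAP1, which was listed at 14.8 to 21.4.

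Malate dehydrogenase and the aspartate transaminases form the malate-aspartate shuttle, which carries reducing equivalents into mitochondria. MDH1, the cytosolic malate dehydrogenase, had values of 337, 358 and 362 in controls and 209, 206 and 239 in sgMETTL1.3 (log2 fold change -0.69, limma adjusted p = 6.04e-05; -0.33 as TPM). MDH2, the mitochondrial one, had 200.0, 211 and 212 in controls and 177, 121 and 136 in sgMETTL1.3. It fell by 0.53, and by 0.69 without replicate 1, the highest of its group. The ratio of MDH2 to MDH1 was 0.589 ± 0.00455 in controls and 0.67 ± 0.157 for the sgMETTL1.3 libraries (exact permutation p = 0.9; SD, n = 3). It overlapped between groups, at 0.588 and 0.571 in replicates 2 and 3 and 0.85 in replicate 1. GOT2, the mitochondrial aspartate transaminase, fell from 212, 227 and 230 to 133, 121 and 142, or -0.76 on the log2 scale (SE 0.0992, limma adjusted p = 3.25e-05), or -0.40 as TPM. GOT1, the cytosolic form, had 42.5, 43.6 and 43.8 in controls and 35.0, 32.8 and 36.5 in sgMETTL1.3. It fell by 0.31, and was at 0.04 as TPM without passing. It also did not pass without sgNS replicate 1, 2 or 3 (limma adjusted p = 0.0529, 0.082 and 0.107). The ratio of GOT2 to GOT1 went from 5.15 ± 0.139 to 3.79 ± 0.099 (SD, n = 3; exact permutation p = 0.1, adjusted 0.16) and did not overlap.

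**Figure D3:**
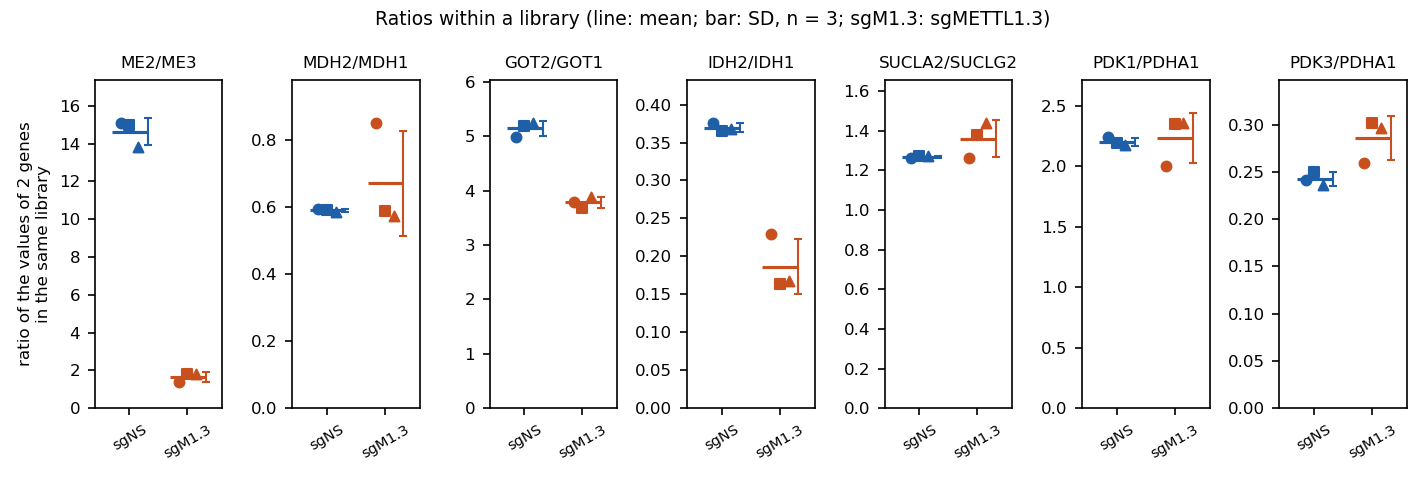
Ratio of the values of 2 genes within each library (axes start at 0), with the mean and SD (n = 3) of each group. ME2/ME3, GOT2/GOT1 and IDH2/IDH1 are lower and PDK3/PDHA1 is higher in every sgMETTL1.3 library than in every control, while MDH2/MDH1, SUCLA2/SUCLG2 and PDK1/PDHA1 overlap.

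Of 8 ratios computed, ME2/ME1, ME2/ME3, GOT2/GOT1, IDH2/IDH1 and PDK3/PDHA1 did not overlap between groups, each with the smallest exact p of 0.1 (0.16 adjusted). ME1 was at or near 0, so ME2/ME1 follows ME2 alone. PDK1/PDHA1, a kinase against its substrate, was 2.2 ± 0.0321 in controls and 2.24 ± 0.205 for the sgMETTL1.3 libraries (exact permutation p = 1; SD, n = 3), and PDK3/PDHA1 was 0.242 ± 0.00705 and 0.286 ± 0.0235. With 3 libraries a group no single ratio can pass 0.05.

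Glutamate dehydrogenase was among the lowest of the set, and pyruvate carboxylase did not pass. GLUD1, which links glutamate to 2-oxoglutarate, had values of 126, 136 and 132 in controls and 66.4, 61.8 and 74.7 in sgMETTL1.3. It fell to 51.5% of the control mean, or -0.95 on the log2 scale (SE 0.103, limma adjusted p = 7.34e-06), or -0.59 as TPM. Its near-identical copy GLUD2 was listed at 1.94 to 4.14 and its pseudogene GLUD1P3 at 2.98 to 4.97, and reads could be shared among them. PC, pyruvate carboxylase, was low, with values of 7.41, 7.15 and 7.40 in controls and 7.56, 4.42 and 5.53 in sgMETTL1.3. Its groups overlapped through sgMETTL1.3 replicate 1, and it had -0.31 (adjusted p = 0.113), or -0.48 (adjusted p = 0.00037) without that library.

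Levels within the set spanned a wide range. As TPM, which is per transcript length, the controls averaged 433 ± 3.63 for IDH1, 353 ± 3.64 for PDK1 and 307 ± 4.68 for MDH1. CS at 248 ± 5.44 and FH at 244 ± 2.72 came next and lay within each other's spread, followed by IDH3B at 237 ± 1.17 (SD, n = 3 for all). At the low end were PDK2 at 6.62 ± 0.299, PC at 6.38 ± 0.389, which overlapped it, and ME3 at 4.75 ± 0.135. In the controls, ME2 at 69.4 ± 1.35 stood between DLAT (65.7 ± 1.22) and DLST (77.4 ± 2.25). In sgMETTL1.3 it was at 14.4 ± 2.29, below PDP1 (22.7 ± 2.74) and above PDK2 (10.3 ± 1.01). The summed TPM of the 35 genes was 4468, 4467 and 4455 in controls and 3594, 4027 and 4065 in sgMETTL1.3.

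The distance of sgMETTL1.3 replicate 1 from the other libraries of its group also followed GC content within the set. Across the 33 genes, Spearman's correlation of transcript GC content with that deviation was 0.831 (a description; the genes share libraries). The deviation on the log2 scale ran from -0.30 for SDHD, with 41.0% GC, to 0.52 for PC, with 61.1%. MDH2, IDH3G, PDK2, IDH2, IDH3B and OGDH, with 52.3% to 61.1%, lay 0.32 or more above the other libraries. In the same GC range, GOT1 (52.8%) lay only 0.02 above and ME3 (56.8%) 0.19 above. ME2, with 40.6%, lay 0.19 below. Ratios within a library of genes that differ in GC content, such as IDH2 (55.9%) and IDH1 (43.1%), carry this deviation too. After a GC correction 29 of the 33 genes fell (87.9%), with IDH3G and PC added to the 27. Calls grew among all tested genes too, of which 61.4% then fell, against 49.3% before the correction. With it ME2 was at -2.44, IDH2 at -1.16 and ME3, which still rose, at 0.30.

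**Figure D4:**
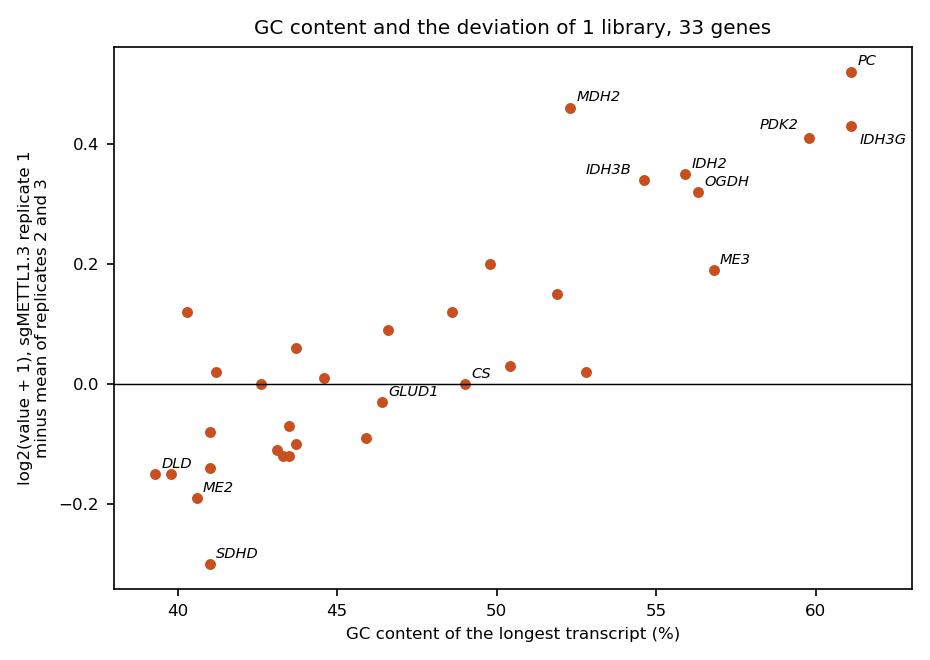
GC content of the longest transcript (percent) against the deviation of sgMETTL1.3 replicate 1 from the mean of replicates 2 and 3 (log2(value + 1)) for the 33 tested genes. Genes rich in GC, such as PC, MDH2 and IDH3G, lie highest, and SDHD and ME2 lie lowest.

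Exons of 10 of the 33 genes overlap those of an expressed gene on the opposite strand: PDHA1, PDHX, IDH1, IDH3A, IDH3G, SUCLA2, SDHC, SDHD, MDH1 and PC. Whether counting used strand is not given in the sources used here, so reads there could be assigned to either gene. Neither ME2 nor ME3 has such an overlap.

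Genes that serve the same steps were also mostly lower. Of 57 genes in 6 lists of transporters, cofactor enzymes and neighbouring reactions, 49 were tested; on the spike-in scale 35 fell, 0 rose by limma (0 also at an unadjusted p under 0.05) and 14 did not pass (median -0.59), and as TPM 22 fell and 6 rose (median -0.26). Among all tested genes 49.3% fell and 6.4% rose on the spike-in scale (median -0.32), and 25.3% and 24.8% as TPM. The lists too were chosen with earlier results of these data known, so their counts are a description. Among 7 tested genes of pyruvate entry and lactate, 6 fell (4 as TPM), with LDHA, lactate dehydrogenase A, at -1.19 and LDHB at -0.76 (-0.83 and -0.40 as TPM). The lipoate, thiamine and biotin list, whose products are the cofactors of the 2-oxoacid dehydrogenases and of pyruvate carboxylase, had 8 of 9 lower (5 as TPM, where 1 rose). In it GCSH, a lipoyl carrier protein of glycine cleavage, went from 65.2 ± 4.68 to 22.4 ± 1.06 (SD, n = 3), which was -1.50 on the log2 scale, or -1.14 as TPM. Of 10 other cycle enzymes and assembly factors 7 fell (4 as TPM, where 2 rose), led by the succinate dehydrogenase assembly factors SDHAF3 (-1.24, or -0.90 as TPM) and SDHAF4 (-0.73, or -0.39).

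Of 7 tested mitochondrial carriers 5 fell (4 as TPM, where 1 rose). SLC25A3, the phosphate carrier, was at -1.16 and SLC25A13, an aspartate-glutamate carrier of the malate-aspartate shuttle, at -1.14 (-0.80 and -0.78 as TPM). Branched-chain amino acid breakdown had 6 of 7 lower (2 as TPM), with BCAT1, the cytosolic branched-chain transaminase, at -1.36 and PPM1K, the phosphatase of the branched-chain dehydrogenase, at -1.06 (-1.01 and -0.76 as TPM). The list of glutamine, propionate and phosphoenolpyruvate entry had 3 of 9 lower, and as TPM 3 lower and 2 higher. Without sgMETTL1.3 replicate 1 it had 5 lower, where 61.4% of all tested genes fell. ACLY, ATP citrate lyase, fell by 0.74 and MCEE, of propionate breakdown, by 0.81 (0.38 and 0.46 as TPM). Genes named from each list were picked for a small limma p and do not stand for the list as a whole. List medians were -0.61 for the carriers (-0.26 as TPM) and -0.50 for branched-chain breakdown (-0.15 as TPM). For glutamine, propionate and phosphoenolpyruvate entry the median was -0.26 (0.09 as TPM).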

How the data were processed

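The authors deposited 1 table of signal values per gene and library. Cutadapt, STAR, RSEM and the build GRCh38 (hg38) are named, per the submitters' processing notes; their versions, the annotation and any strand setting are not stated in the labels. The values show TPM multiplied by 1 factor per library so that 92 ERCC rows sum to 38252 in each; read numbers cannot be had from them, depth is unknown, and intervals for counting error cannot be made. Libraries listed 12134 to 12505 genes at 1 or more.

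Genes listed at 1 or higher in 3 or more libraries were fitted on log2(value + 1) with limma 3.58.1 (trend, robust) in R 4.3.3, group only, Benjamini-Hochberg threshold 0.05; the design had provided for counts or normalized values, and the latter branch was used. The fit was tested on simulated data. Ratios were compared by exact permutation. GC content and positions came from GENCODE 29 (94.4% of tested genes had GC), promoters from RefSeq. Alternatives were TPM, median ratios, pseudocounts, filters, no trend, a replicate block, GC correction and each library left out; TPM with the block and TPM with GC correction were chosen after seeing the data. Named genes were METTL1, WDR4, the set, the 2 smallest p of each pathway list and neighbours of ME2; a gene the rule names is not reported here. The members and lists were chosen with earlier results of these data known.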

Additional observations from a re-analysis of the deposited data

How the results depend on the processing

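ME2 and METTL1 kept their direction and stayed past the threshold under every alternative run, and the 6 ratios other than MDH2/MDH1 and PDK1/PDHA1 kept their direction, though no ratio can pass the threshold at this sample size; ME2 ranged from -2.64 to -2.49 with any single library removed, and METTL1 from -1.50 to -1.29. The number of set genes that fell (27) was 21 to 29 with 1 library left out (21 without sgNS replicate 2), and 25 with the replicate block. The share of all tested genes that fell moved too. It was 39.7% to 61.4% with 1 library left out (39.7% without sgNS replicate 2), and 47.1% with the block. Same-numbered libraries did not deviate together (correlations -0.0137, 0.00455 and -0.0385). The block moved no count on the spike-in scale by over 1.5 times. The cause of the differences below was not tested, except that TPM and median ratios centre the median of all genes near 0. Set genes lower numbered 15 as TPM, 17 with median ratios, 14 as TPM with the replicate block and 15 as TPM with GC correction. Of all tested genes 25.3%, 28.9%, 23.7% and 34.3% fell in these settings, against 45.5%, 51.5%, 42.4% and 45.5% of the set. Set genes higher numbered 3, 3, 3 and 4 in these, and 6 as TPM without sgMETTL1.3 replicate 1. Those were 9.09% to 18.2% of the set, where 24.8%, 23%, 23.6%, 30.3% and 36.3% of all tested genes rose. Pathway genes lower numbered 22 as TPM, both without and with the block, where 25.3% and 23.7% of all tested genes fell. Pathway genes higher numbered 6 as TPM, 4 with median ratios, 2 without a filter and 11 as TPM without sgMETTL1.3 replicate 1. They numbered 5 as TPM with the block, 6 as TPM with GC correction, and 0 to 1 with 1 library left out (1 without sgMETTL1.3 replicate 2). In the same order, 24.8%, 23%, 5.31%, 36.3%, 23.6%, 30.3% and, with 1 library left out, 4.34% to 8.41% of all tested genes rose.

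Signs of set genes changed as follows. As TPM, with and without the block: PDHB 0.05, PDP1 0.24, IDH1 0.31, IDH3B 0.01, IDH3G 0.09, SDHA 0.01, PC 0.00 and GOT1 0.04. With median ratios: PDHB 0.02, PDP1 0.21, IDH1 0.28, IDH3G 0.05 and GOT1 0.01. With GC correction: PDP1 0.01 and IDH1 0.03. As TPM without sgMETTL1.3 replicate 1: PDHB 0.12, PDHX 0.09, PDK3 0.09, PDP1 0.34, IDH1 0.42, IDH3G 0.01, SUCLA2 0.01, SDHA 0.01, SDHD 0.01 and GOT1 0.11. As TPM with GC correction: PDHB 0.11, PDHX 0.07, PDK3 0.06, PDP1 0.35, IDH1 0.39 and SUCLG1 0.04. Of these, only IDH1 (as TPM in all its forms and with median ratios), PDP1 (both last settings) and PDHB and GOT1 (as TPM without sgMETTL1.3 replicate 1) passed the threshold after the change. MDH2/MDH1 (0.16) was -0.02 without sgMETTL1.3 replicate 1 and ranged from -0.02 to 0.26 over the left-out libraries, and PDK1/PDHA1 (0.02) from -0.03 to 0.09. ME2/ME1 could not be computed without a pseudocount.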
